A study of Mus musculus with 18 samples.

Results

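Chaperone and protein folding mRNAs were taken as the transcripts of mouse RefSeq protein-coding genes whose symbol starts with Hspa, Hspb, Hsp90, Hspd1, Hspe1, Hsph1, Dnaja, Dnajb, Dnajc, Pdia or Cct followed by a digit, or is Calr, Canx, P4hb or Tcp1. The rule reads gene symbols alone and gave 90 of 21013 annotated genes, and it was chosen with earlier results of these data known. Of these, 51 encode cytosolic or nuclear proteins, 22 encode proteins of the endoplasmic reticulum, 8 encode mitochondrial proteins, and 9 were placed in none of these compartments. An m5C site in an exon, on the strand of the gene, was listed in at least 1 library for 24 of the 90 genes and for 2607 of all 21013. The 24 genes carried 340 of the 18059 mRNA sites and of the 25890 sites listed in all.

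RNA labelled as that of primary neurons from the cerebral cortex of C57BL/6 mice, prepared from fetuses at day 18 of pregnancy, was depleted of rRNA, treated with bisulfite and sequenced. Bisulfite turns unmethylated cytosine into uracil and leaves m5C as cytosine. The control group was untreated. The OGD/R 1.5 h group was kept without glucose and under low oxygen for 1.5 h and then returned to normal medium and incubation for 24 h, and the OGD/R 3 h group was deprived for 3 h before the same 24 h of recovery. The gas mixture given in the labels adds up to more than the whole and contains oxygen at the level of air, so the degree of hypoxia is not known from it. Each group had 3 bisulfite libraries, and the 9 mock libraries, made without bisulfite, are not analysed here. The OGD/R 1.5 h group is in the deposited data but is not reported on in the paper.

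The value in the files is a list of sites per library, each with a score. From its values the score was read as one that joins the coverage of a site with its methylation level, a meaning that no source used here states and that every comparison of scores rests on. A site that is not listed may be unmethylated or too thinly covered, so its absence sets no limit, and a number of sites is not a level. Fewer cells that express a gene and less of its RNA per cell cannot be told apart in such bulk samples. Sequencing depth is not known, and the size of each list stands in for it. Control replicates 1, 2 and 3 held 6021, 6254 and 5907 sites, OGD/R 1.5 h replicates held 5423, 5745 and 5684, and OGD/R 3 h replicates held 7772, 7266 and 7376. In control and OGD/R 3 h the replicates were closer in coverage than sampling noise alone would make them, so the 3 libraries of a group were counted as 1 sample, and OGD/R 1.5 h was treated in the same way. Every SD given is therefore a spread between sequencing libraries. Differences between groups are described without p-values, since nothing in the data checks them against separate cultures.

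The label of the cells was checked against marker genes. None of 16 neuronal markers, among them Tubb3, Map2, Rbfox3 and Snap25, had a site in any of the 9 libraries, where 2607 of all 21013 protein-coding genes had one. Of the astrocyte markers, 1 of 4, Aldh1l1, had sites, 4 over the 9 libraries. All 17 markers of intestinal epithelium had a site in at least 1 library. Their summed number of sites was 105, 108 and 92 in control, 62, 65 and 61 after OGD/R 1.5 h, and 215, 210 and 217 after OGD/R 3 h, with the most, 283 over the 9 libraries, in the mucus protein gene Fcgbp. Of the 17, 8 had more sites in every OGD/R 3 h library than in any of control, and Fabp1, Lgals4 and Apoa4 had fewer, against 18.6% and 18.7% of the 2267 genes with a site in either group. Markers of erythroid cells had 31 sites in each OGD/R 3 h library and 0 in each of the other 6 libraries. These lay in 2 of 4 genes, Hbb-bs, with 75 sites over the libraries, and Hbb-bt, while Hba-a1 and Hba-a2 were at 0. Markers of neutrophils and bone marrow had 21 sites in each OGD/R 3 h library and 0 elsewhere, in 3 of 7 genes, Ngp, S100a8 and S100a9, with the most, 27, in S100a8 and with Camp, Ltf, Elane and Mpo at 0. Markers of smooth muscle had 15, 12 and 7 sites in control, 10, 10 and 8 after OGD/R 1.5 h and 8, 11 and 11 after OGD/R 3 h, in 4 of 5 genes, with the most, 50, in Myh11 and with Cnn1 at 0. Since few genes have a site and its absence sets no limit, the lack of neuronal markers is weak evidence by itself. These lists were chosen with earlier results of these data known, so sites in all 17 intestinal markers are partly set by that choice. Sites in such mRNAs do not go with the neuronal label, but their number is no separate test of it. In the paper, staining for β-III tubulin identified the cells as neurons, and genes lower in expression after OGD/R were enriched in neuronal terms. Neither that staining nor expression was used here. The samples are called by their groups only.

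Chaperones bind proteins that are not yet folded or have lost their fold. In the cytosol, Hsp70 proteins take up exposed hydrophobic stretches in a cycle of ATP hydrolysis that J domain proteins start, Hsp90 proteins act late on signalling proteins, and the chaperonin TRiC encloses actin and tubulin in a chamber. In the endoplasmic reticulum, the lectins calnexin and calreticulin hold glycoproteins while protein disulfide isomerases pair their cysteines, and mitochondria have an Hsp70 and an Hsp60 chaperonin of their own. Many of these genes are induced by heat, by unfolded proteins or by lack of oxygen or glucose, to which neurons are known to be sensitive.

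Some sites of chaperone mRNAs stood in dense runs of cytosines and others were lone cytosines of high score, while most of the 340 were neither. Sequences of these 2 kinds are given. Sequences are from RefSeq on GRCm38.p6 (mm10), read 5′ to 3′ on the strand of the gene, and nt are counted along the spliced transcript from the first base of the start codon, which is 0. In the stretches shown first, which hold some of the runs, capitals mark each cytosine listed in at least 1 library of the group named. The run in Calr lies in the 5′ UTR part of exon 1, at chr8:84846836-84846862 on the minus strand. The stretches of Canx lie in the coding part of exon 9 on the minus strand, at chr11:50301800-50301829 for OGD/R 3 h, where the stretch shown reaches back beyond the run, and at chr11:50301767-50301789, 10 nt further along the mRNA, for control. The stretches of Hsp90b1 lie in exon 1 on the minus strand, in the 5′ UTR at chr10:86705359-86705375 for control and in the coding sequence at chr10:86705316-86705332 for OGD/R 3 h. The run in Dnaja2 lies in the coding part of exon 5 at chr8:85548577-85548600 on the minus strand, and the run in Hspa5 in the coding part of exon 8 at chr2:34775961-34775980 on the plus strand.
Calr, OGD/R 3 h: CCgCagagCCgCtgCCtgaagatCgtC
Canx, OGD/R 3 h: CaagCctgaaggctggCtagaCgaCgaaCC
Canx, control: CCagaCCctgatgCagagaagCC
Hsp90b1, control: CgactCgccggCCaCgC
Hsp90b1, OGD/R 3 h: CCtCtgCtgtgtCCtgC
Dnaja2, OGD/R 1.5 h: CagatgCagtCCgtgtgCtCcgaC
Hspa5, OGD/R 3 h: CtggaaagCCacCaggatgC

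Runs of at least 5 sites with gaps of at most 10 nt were found in Canx and Hsp90b1 in control, in exons 5 and 6 of Dnaja2 in OGD/R 1.5 h, and in Calr, Canx, Hsp90b1, Hspa4 and Hspa5 in OGD/R 3 h. Each run was chosen by its sites in the group named, so fewer sites in the other groups are partly set by that choice. Canx had further runs in OGD/R 3 h in exon 5, from 360 to 384 nt, and in exon 8, from 836 to 853 nt, and in the latter every library of the other groups also listed sites. In the Calr run all 10 cytosines were listed in each of the 3 OGD/R 3 h libraries. None was listed in a control library, and 1 of the 10 was listed in OGD/R 1.5 h, in replicate 3 alone with a score of 5, against scores from 57 to 784 in OGD/R 3 h. In no other run of a chaperone mRNA were all listed cytosines found in every library of the group. The Canx stretch of OGD/R 3 h had 7 of its 9 cytosines listed, 3 in replicate 1, 6 in replicate 2 and 0 in replicate 3, while 0, 0 and 0 were listed in control and 0, 1 and 0 in OGD/R 1.5 h. The Canx run of control had 4, 5 and 6 cytosines listed in control, 3, 3 and 1 after OGD/R 1.5 h and 0, 4 and 2 after OGD/R 3 h. The run of control thus had sites in every group. The stretch before it, chosen by its sites in OGD/R 3 h, had 1 site outside that group and 0 in OGD/R 3 h replicate 3.

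The Hsp90b1 stretch in the coding sequence had 7 of its 7 cytosines listed, with 3, 4 and 6 in the OGD/R 3 h libraries, 0, 1 and 0 in control and 0, 1 and 0 in OGD/R 1.5 h. The Hsp90b1 stretch in the 5′ UTR had 5, 6 and 0 of its 9 cytosines listed in control, so it rested on 2 of the control libraries, with 3, 0 and 0 in OGD/R 1.5 h and 1, 3 and 0 in OGD/R 3 h. A run in OGD/R 3 h overlapped with it, from -17 to 8 nt, with 2, 4 and 1 of its 5 sites, and it crossed the start codon into the coding sequence. The Dnaja2 stretch had 3, 6 and 2 cytosines listed in OGD/R 1.5 h, against 0, 0 and 1 in control and 2, 2 and 1 in OGD/R 3 h, and the libraries of OGD/R 1.5 h and OGD/R 3 h overlapped. Like the other stretches here, it was chosen by its sites in 1 group. Its difference from the other groups is partly set by that choice. The Hspa5 run had 2, 1 and 3 cytosines listed in OGD/R 3 h and 0 in each of the other 6 libraries.

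The lone sites were those with a score of at least 100 in all 3 libraries of a group and with no other listed site within 10 nt in the same library, a limit chosen after the scores were seen. There were 11 of them, in 5 genes, all in coding sequence and on the minus strand. The sequence of each is given with 10 nt on either side, with the site as the capital. The final 4 bases up to the site read GGAC in 6 of the 11, which is a motif picked after these sequences were read.
Calr 1065 nt, exon 9, chr8:84842822-84842842: tgcagagaagCagatgaagga
Calr 1118 nt, exon 9, chr8:84842769-84842789: aagaagaggaCaagaagcgta
Calr 1187 nt, exon 9, chr8:84842700-84842720: aagatgaggaCgaagaagatg
Canx 1607 nt, exon 13, chr11:50297298-50297318: aagagaagaaCaagagggatg
P4hb 1445 nt, exon 10, chr11:120562157-120562177: gagcaggggaCgatgaggtga
Hsp90b1 130 nt, exon 2, chr10:86704305-86704325: ggctcaaggaCagatgatgaa
Hsp90b1 2353 nt, exon 17, chr10:86691647-86691667: gatgcagggaCagaagaagaa
Hsp90ab1 742 nt, exon 6, chr17:45570462-45570482: gaggagaagcCtaagattgaa
Hsp90ab1 763 nt, exon 6, chr17:45570441-45570461: gatgtgggatCcgatgaggaa
Hsp90ab1 1619 nt, exon 9, chr17:45568959-45568979: ctaaggagggCctggagctac
Hsp90ab1 1637 nt, exon 9, chr17:45568941-45568961: taccagaggaCgaggaagaga

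GGAC with the site as its last base made up 54.5% of these lone sites, a share partly set by picking the motif from them. The share was 10.3% among the 232 lone sites of the same kind in all mRNAs, which include these. It was 4.12% among all 340 chaperone sites and 4.59% among all mRNA sites. Of exon cytosines, it was 1.85% of the 16183 in the 24 chaperone genes with a site and 1.71% in all genes with a site. The lone chaperone sites had on average 1.27 other cytosines within 10 nt, from 0 to 4, against 2.91 for the lone sites of all mRNAs and 4.71 for the exon cytosines of the chaperone genes. They were thus poorer in neighbouring cytosine than the lone sites of all mRNAs. The difference from the exon cytosines is partly set by the choice of sites without a listed neighbour.

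The number of chaperone sites per library was 62, 68 and 62 in control, 54, 67 and 62 after OGD/R 1.5 h, and 123, 117 and 105 after OGD/R 3 h. All 3 OGD/R 3 h libraries were above all other libraries, and the libraries of control and OGD/R 1.5 h overlapped. The means were 64.0 ± 3.46, 61.0 ± 6.56 and 115 ± 9.17 (SD, 3 libraries). On the log2 scale the mean of OGD/R 3 h was 0.85 above control and 0.91 above OGD/R 1.5 h, and that of OGD/R 1.5 h differed from control by -0.07. The values against OGD/R 1.5 h depended on the sites counted. With sites of at least 2 libraries of a group OGD/R 3 h was 1.36 above OGD/R 1.5 h, which differed from control by -0.56, and with sites without a neighbour within 10 nt these values were 0.31 and 0.51. For all mRNA sites the first 3 ratios were 0.32, 0.45 and -0.13. As a share of the mRNA sites of a library, chaperone sites made up 1.62 ± 0.0237% in control, 1.69 ± 0.176% in OGD/R 1.5 h and 2.34 ± 0.128% in OGD/R 3 h. The log2 ratio of these shares of OGD/R 3 h over control was 0.53, so part of the higher number went with the higher number of sites in all mRNAs. The summed sites of the intestinal, erythroid and neutrophil markers were also highest in the OGD/R 3 h libraries, for the intestinal ones with 12, 13 and 10 sites of Fcgbp in control against 72, 69 and 66, and their part in the result was not tested.

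A library held sites in 15, 16 and 16 chaperone genes in control, in 12, 13 and 14 in OGD/R 1.5 h and in 16, 15 and 17 in OGD/R 3 h, a log2 ratio of 0.03 for OGD/R 3 h over control and of -0.27 for OGD/R 1.5 h over control. For all genes these ratios were -0.26 and -0.10. With sites listed in all 3 libraries of a group, 8 chaperone genes in control and 13 in OGD/R 3 h had a site, a log2 ratio of 0.70. The ratio of OGD/R 1.5 h over control was -0.47 with sites of at least 2 libraries and 0.00 with sites without a neighbour. Over the libraries of a group, 20 of the 90 members had a site in control (22.2%), 18 in OGD/R 1.5 h (20.0%) and 19 in OGD/R 3 h (21.1%). Of all protein-coding genes, 8.62%, 8.31% and 6.9% had a site in these groups. Expression was not analysed here, and a gene must be expressed to have a listed site. A site in every group was found for 15 members, and a site in every library for 8, which were Calr, Canx, Dnaja2, Hsp90ab1, Hsp90b1, Hspa4, P4hb and Pdia3. The 66 members with no site in any library included Hspa1a and Hspa1b, the stress-induced Hsp70 genes, Dnajb1, Hsph1, Hspd1 and Tcp1, which are named here after their values were seen.

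Gene by gene, members were called higher when each library of a group listed more sites in the gene than each library of the other group. Between OGD/R 3 h and control, 7 of the 22 members with a site in either group were higher in OGD/R 3 h, against 18.6% of all 2267 genes with a site in either group, and 2 of the 22 were lower, against 18.7%. The 7 were Calr, Canx, Dnajc5, Hsp90ab1, Hspa4, Hspa5 and Pdia3, and the 2 were Cct8 and Hspa8. Between OGD/R 1.5 h and control, Calr and Hspa5, 2 of 23 members, were higher in OGD/R 1.5 h, against 8.55% of genes, and 3 of 23, Cct8, Dnajb11 and Hspa8, were lower, against 15.1%. Between the treated groups, 8 of 21 members were higher in OGD/R 3 h, against 19.9% of genes, and 0 were lower, against 13.4%. The 8 were Calr, Canx, Dnajb11, Dnajc3, Hsp90ab1, Hsp90b1, Hspa4 and P4hb. The comparisons with control share its libraries.

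**Figure D1:**
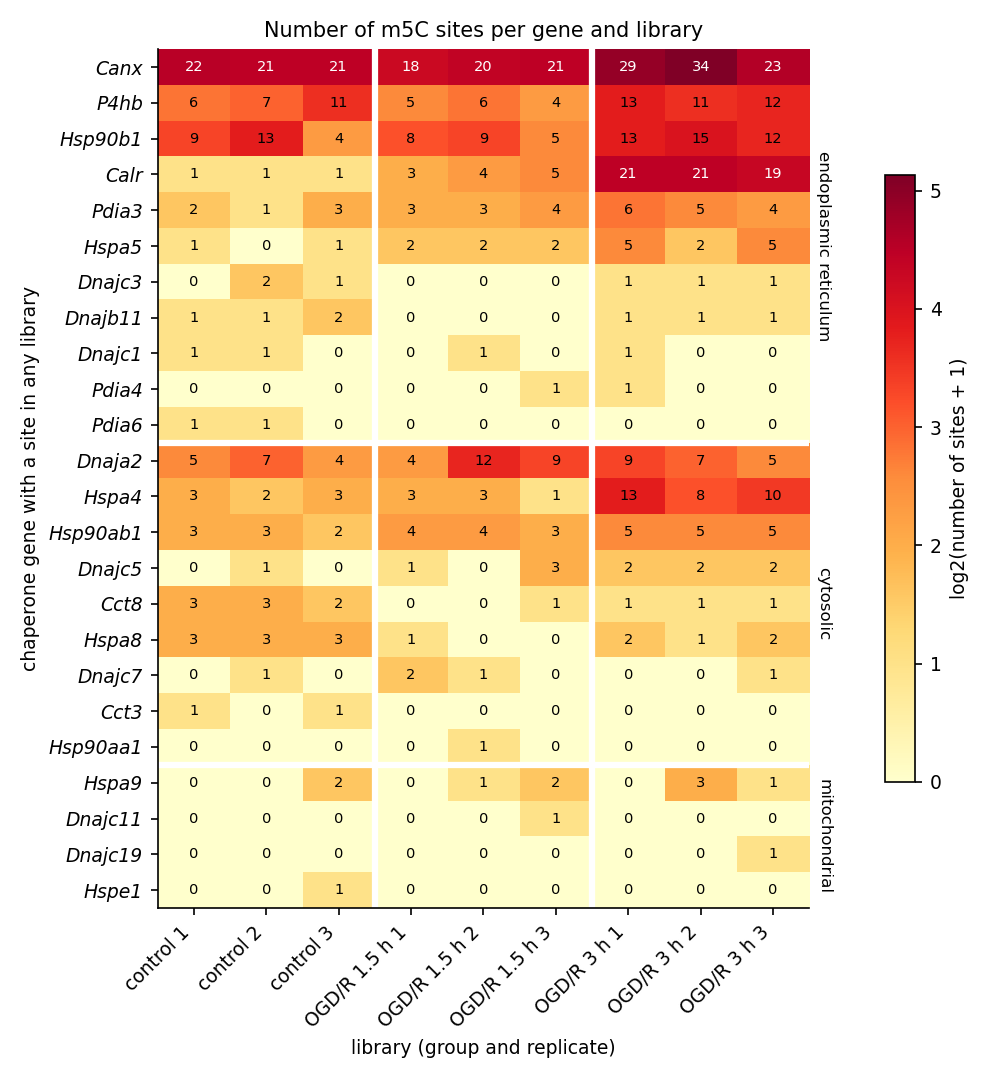
Number of m5C sites in each of the 24 chaperone genes with a site, in each of the 9 libraries, by compartment, with the color giving log2 of the number plus 1. Calr went from 1 site in each control library to 21, 21 and 19 in OGD/R 3 h, and Canx had the most sites of the 24 genes in every library.

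By compartment, members of the endoplasmic reticulum carried 44, 48 and 44 sites in the control libraries, 39, 45 and 42 in OGD/R 1.5 h, and 91, 90 and 77 in OGD/R 3 h. Cytosolic members carried 18, 20 and 15 sites in control, 15, 21 and 17 after OGD/R 1.5 h, and 32, 24 and 26 after OGD/R 3 h. Mitochondrial members carried 0, 0 and 3 sites, 0, 1 and 3 sites, and 0, 3 and 2 sites in the same order. In the endoplasmic reticulum and in the cytosol all OGD/R 3 h libraries were above all others and control and OGD/R 1.5 h overlapped, while in mitochondria the 3 groups overlapped.

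The log2 ratio of OGD/R 3 h over control was 0.92 for the endoplasmic reticulum and 0.63 for the cytosol, and that of OGD/R 1.5 h over control was -0.11 and 0.00. The ratios of OGD/R 3 h leaned on a few genes. Without Calr the ratio of OGD/R 3 h over control for the endoplasmic reticulum was 0.57, without Canx it was 1.26, and without Hspa4 the ratio for the cytosol was 0.18. These genes were left out after their values were seen. Members of the endoplasmic reticulum held 70.8 ± 0.219% of the chaperone sites of a library in control, 69.0 ± 2.77% in OGD/R 1.5 h and 74.7 ± 1.91% in OGD/R 3 h. The difference of OGD/R 1.5 h minus control was -1.80 points, and its sign depended on the sites counted. It was 2.75 with sites of at least 2 libraries, 3.95 with those of all 3 and 5.36 with sites without a neighbour. The difference of 3.91 percentage points between OGD/R 3 h and control had the opposite sign without Calr, at -1.06 points. It was 0.769 points with sites of at least 2 libraries, 1.67 with those of all 3 and 8.74 with a score of at least 10. Cytosolic members held 27.5 ± 2.91%, 28.8 ± 2.17% and 23.8 ± 2.88%. Their difference of OGD/R 1.5 h minus control was 1.30 points. It was -2.75 with sites of at least 2 libraries, -3.95 with those of all 3 and -7.54 with sites without a neighbour. For OGD/R 3 h minus control it was -3.78 points, -9.28 with a score of at least 10 and 0.885 without Calr.

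A larger part of the endoplasmic reticulum members had a site, and with the members joined their sites were denser. A site was found in 45.5% of the 22 members in control, 36.4% in OGD/R 1.5 h and 45.5% in OGD/R 3 h. For the 51 cytosolic members the shares were 15.7%, 15.7% and 13.7%, and for the 8 mitochondrial members 25.0% in each group. Of all protein-coding genes, 8.62%, 8.31% and 6.9% had a site. Per 1000 exon cytosines of the members, with the libraries of a group joined, the endoplasmic reticulum had 4.60 sites in control, 5.10 in OGD/R 1.5 h and 8.96 in OGD/R 3 h. The cytosol had 1.11, 1.37 and 1.61 sites, and mitochondria had 0.797, 1.06 and 1.06. In each group the density was highest in the endoplasmic reticulum and lowest in mitochondria, where it rested on 3 or 4 sites. That of the endoplasmic reticulum leaned on a few genes and does not describe its members one by one. Of its 75, 83 and 146 joined sites, Canx held 32, 39 and 49. Hsp90b1 held 15, 15 and 23 of them, P4hb 14, 9 and 22, and Calr 3, 5 and 26.

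**Figure D2:**
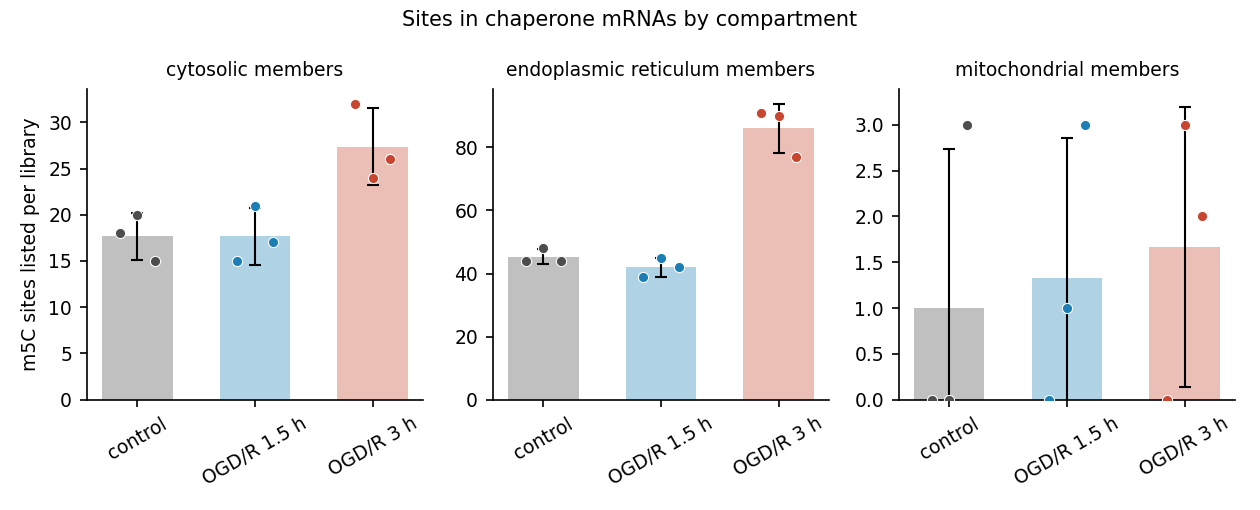
Number of m5C sites per library in the cytosolic, endoplasmic reticulum and mitochondrial chaperone genes, with bars for the mean, points for the 3 libraries and error bars for the SD over libraries, and with a different vertical scale in each panel. The OGD/R 3 h libraries lay at 77 to 91 sites in the endoplasmic reticulum and at 24 to 32 in the cytosol, above the other groups, and at 0 to 3 in mitochondria, where the groups overlapped.

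Calr encodes calreticulin, the soluble lectin chaperone that binds calcium in the lumen of the endoplasmic reticulum. It had 1, 1 and 1 site in control, 3, 4 and 5 after OGD/R 1.5 h, and 21, 21 and 19 after OGD/R 3 h, and the 3 groups did not overlap. In OGD/R 3 h, exon 1 held 16, 16 and 17 of these sites, the 10 of the run among them, and exon 1 held 0, 0 and 0 sites in control and 0, 0 and 1 in OGD/R 1.5 h. The sites in OGD/R 1.5 h lay instead in exon 9, the final exon, with 3, 4 and 4. At 1187 nt the scores were 1000, 1000 and 1000, the highest score in any file, in OGD/R 1.5 h, and the site was not listed in the other 6 libraries. At 1118 nt the scores were 415, 399 and 553 in OGD/R 1.5 h, and 190, 106 and 42 in OGD/R 3 h, and of the control libraries replicate 3 alone listed it, with 667. The site at 1065 nt had scores of 149, 140 and 142 in OGD/R 1.5 h only. It is 1 of 3 Calr sites whose surrounding 51 nt match another place in the genome with at most 2 mismatches after conversion of C to T, so its assignment is uncertain. None of the sites of the run had such a match.

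**Figure D3:**
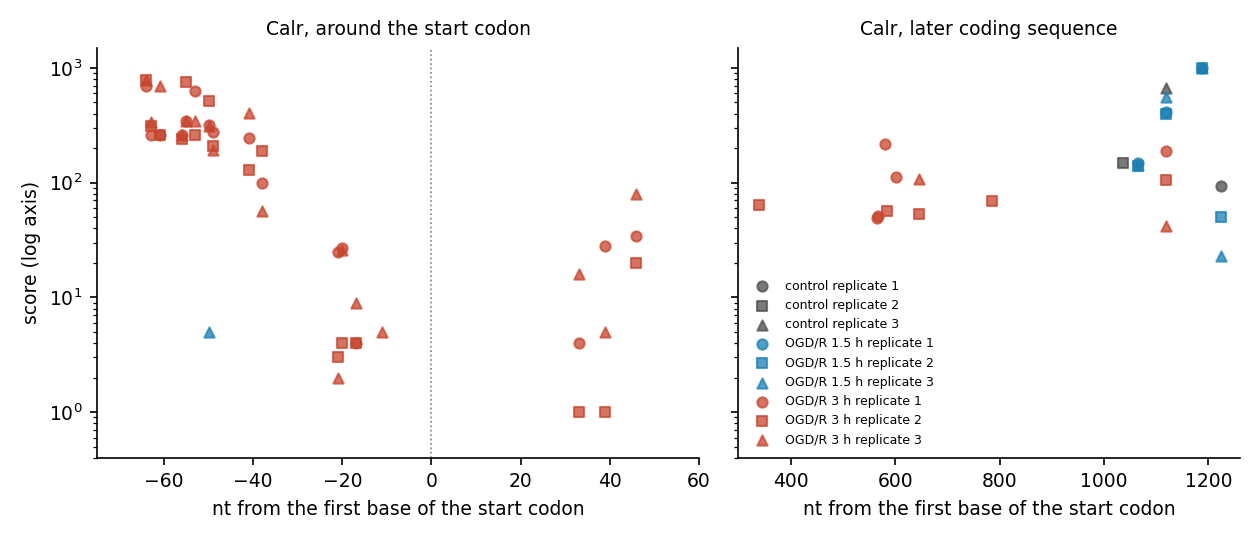
Score of each Calr site on a log axis against its distance in nt from the first base of the start codon, around the start codon (left) and in later coding sequence (right), with color for the group and marker shape for the replicate. Near the start codon the points are those of OGD/R 3 h and a single one of OGD/R 1.5 h with a score of 5, and at 1187 nt the 3 libraries of OGD/R 1.5 h coincide at 1000.

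Canx encodes calnexin, the membrane-bound lectin chaperone of the same cycle, and it carried the most sites of the members, 86 different cytosines over the 9 libraries. It had 22, 21 and 21 sites in control, 18, 20 and 21 after OGD/R 1.5 h, and 29, 34 and 23 after OGD/R 3 h. The OGD/R 3 h libraries were above the others, by 1 site in the nearest case, and control and OGD/R 1.5 h touched at 21 sites. The exons differed in this. Exon 5 held 0 sites in each control library, 1, 1 and 2 in OGD/R 1.5 h and 6, 5 and 4 in OGD/R 3 h, without overlap, and exon 7 held sites in OGD/R 1.5 h only, 2 in each library. Exon 2 held 2 in each library of control and OGD/R 3 h and 0 in OGD/R 1.5 h, but at different cytosines, 27 and 30 nt in control against 35 and 82 nt in OGD/R 3 h. The lone site at 1607 nt in exon 13 had scores of 1000, 1000 and 1000 in OGD/R 1.5 h and was not listed elsewhere. This site and that of Calr at 1187 nt were the chaperone sites with the highest score in every library of a group. At 1002 nt in exon 9 the scores were 305, 289 and 54 in control and 21 and 17 in OGD/R 3 h replicates 2 and 3, and no OGD/R 1.5 h library listed it.

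Hsp90b1 encodes Grp94, the Hsp90 of the endoplasmic reticulum. It had 9, 13 and 4 sites in control, 8, 9 and 5 after OGD/R 1.5 h, and 13, 15 and 12 after OGD/R 3 h. OGD/R 3 h was above OGD/R 1.5 h but met control replicate 2 at 13 sites, and control had the widest spread, with an SD of 4.51. Exon 1 held 7, 12 and 3 of the control sites, 4, 6 and 3 of the OGD/R 1.5 h sites and 11, 13 and 9 of the OGD/R 3 h sites. Far from it, the site at 2353 nt in exon 17 had scores of 554, 729 and 839 in OGD/R 1.5 h only. The site at 130 nt in exon 2 was listed in both treated groups, with 233, 248 and 235 in OGD/R 1.5 h and 190, 162 and 84 in OGD/R 3 h, and in no control library. Its scores did not overlap between the treated groups.

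Hspa5 encodes BiP, the Hsp70 of the endoplasmic reticulum and a sensor partner of the unfolded protein response. It had 1, 0 and 1 site in control, 2, 2 and 2 after OGD/R 1.5 h, and 5, 2 and 5 after OGD/R 3 h. Both treated groups were above control and overlapped at 2 sites. Of the J domain proteins that serve BiP, Dnajb11 had 1, 1 and 2 sites in control, none in OGD/R 1.5 h and 1 in each OGD/R 3 h library, all in the 5′ UTR. Its site at -69 nt was listed in control alone, with scores of 134, 31 and 11. Dnajc3, which also restrains the kinase PERK, had 0, 2 and 1 site in control, none in OGD/R 1.5 h and 1 in each OGD/R 3 h library, at 2072 nt in the 3′ UTR with scores of 26, 26 and 44. The control sites of Dnajc3 lay in exon 2.

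Of the disulfide isomerases, P4hb, which is also a subunit of prolyl hydroxylase for collagen, had 6, 7 and 11 sites in control, 5, 6 and 4 after OGD/R 1.5 h, and 13, 11 and 12 after OGD/R 3 h. OGD/R 3 h was above OGD/R 1.5 h and met control replicate 3 at 11 sites. In exon 1, different cytosines were listed in all 3 libraries of each group, those at 59, 115 and 121 nt in control alone, that at 18 nt in OGD/R 1.5 h alone, and those at 24, 117 and 135 nt in OGD/R 3 h alone. The lone site at 1445 nt had scores of 165, 203 and 155 in control and of 152, 161 and 463 in OGD/R 1.5 h, which overlapped, and was listed in no OGD/R 3 h library. In OGD/R 3 h a site 18 nt upstream, at 1427 nt, had scores of 85, 92 and 141, and OGD/R 1.5 h replicate 3 listed it with 343.

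Pdia3, the isomerase that works with calnexin and calreticulin, had 2, 1 and 3 sites in control, 3, 3 and 4 after OGD/R 1.5 h, and 6, 5 and 4 after OGD/R 3 h. OGD/R 3 h was above control, and OGD/R 1.5 h met both. Its 22 sites had little in common between libraries, since 1 of them, at 1129 nt, was listed in all 3 libraries of a group, which was control. A further 3 genes of the endoplasmic reticulum, Dnajc1, Pdia4 and Pdia6, which are named after their values were seen, had 1 site or none in each library. The remaining 11 of the 22 members had no site.

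**Figure D4:**
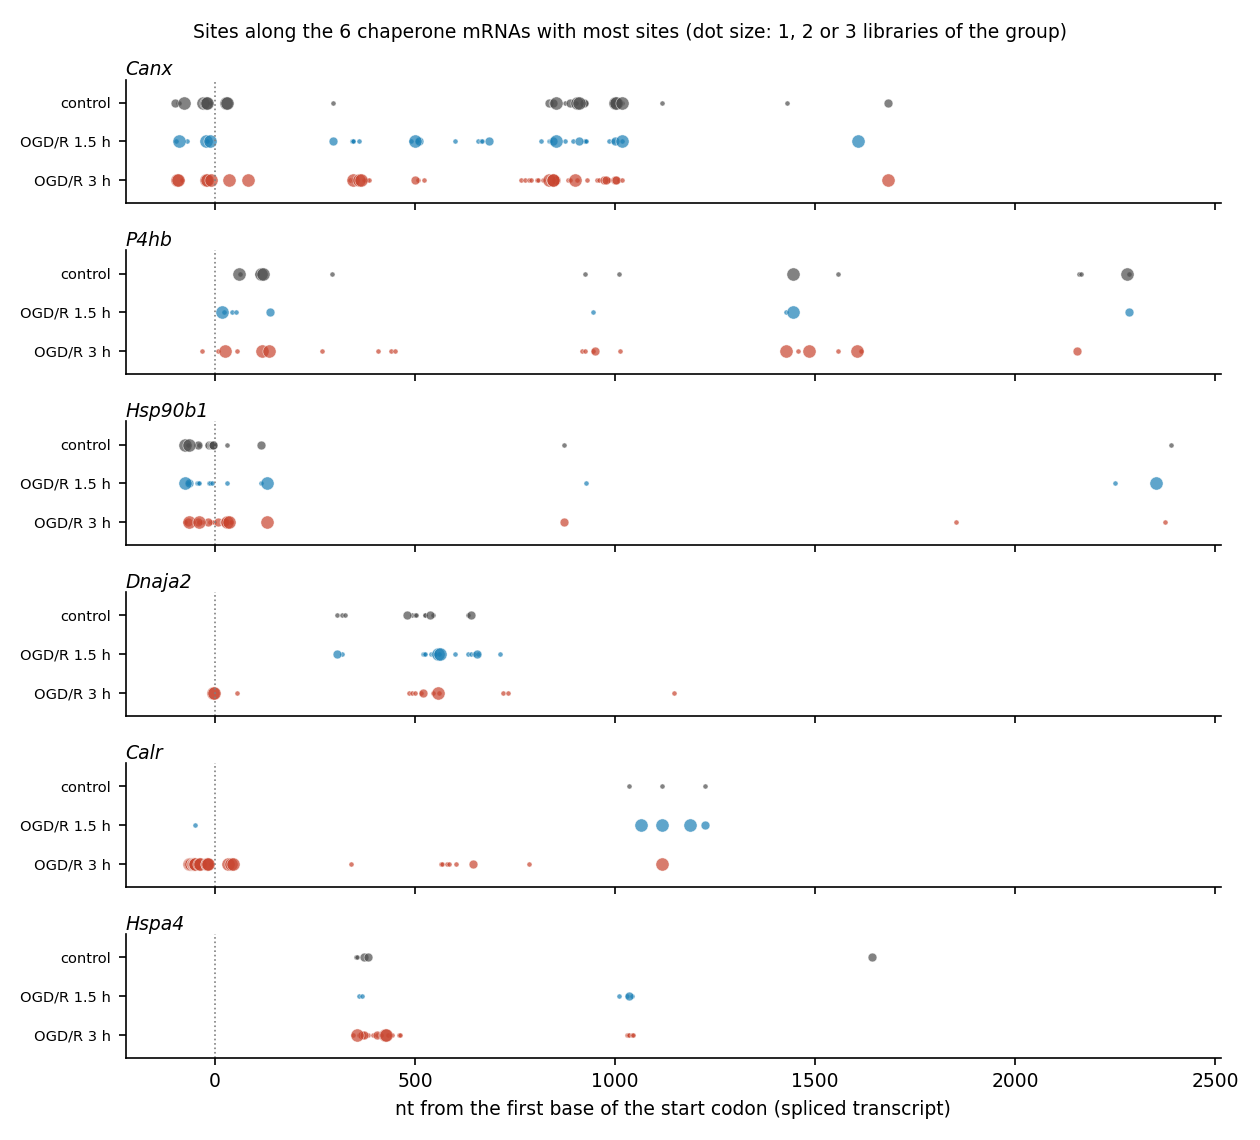
Position of each site along the 6 chaperone mRNAs with the most sites, in nt from the first base of the start codon of the spliced transcript, with a line for each group and the dot size giving the number of libraries of the group that listed it (1, 2 or 3). Around the start codon, Calr has dots of OGD/R 3 h and a single small dot of OGD/R 1.5 h, while Canx and Hsp90b1 have dots of all 3 groups there.

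Among cytosolic Hsp70, Hsp110 and Hsp90 genes, 4 of 13 had a site, where 2607 of all 21013 protein-coding genes had one. Hspa4, an Hsp110-type nucleotide exchange factor for Hsp70, had 3, 2 and 3 sites in control, 3, 3 and 1 after OGD/R 1.5 h, and 13, 8 and 10 after OGD/R 3 h. OGD/R 3 h stood apart from the other groups, which overlapped. Exon 4 held 3, 1 and 2 sites in control against 7, 6 and 8 in OGD/R 3 h, and exon 5 held 0 in every control and OGD/R 1.5 h library against 2, 1 and 2. Exon 9 held 0 in every control library, 2, 2 and 1 in OGD/R 1.5 h and 4, 1 and 0 in OGD/R 3 h. Scores were low, from 0 to 22 in these exons in OGD/R 3 h, and 3 of the 22 sites of the group, at 356, 425 and 427 nt, were listed in all its libraries.

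Hsp90ab1, the constitutive cytosolic Hsp90, had 3, 3 and 2 sites in control, 4, 4 and 3 after OGD/R 1.5 h, and 5, 5 and 5 after OGD/R 3 h. OGD/R 3 h was above the others, and control and OGD/R 1.5 h met at 3 sites. Its site at 1637 nt in exon 9 was the only one of the 340 listed in all 9 libraries, with scores of 361, 489 and 177 in control, 684, 331 and 397 after OGD/R 1.5 h and 78, 286 and 158 after OGD/R 3 h. The treated groups did not overlap there, and control overlapped with both. Other strong sites of the gene differed between the groups. That at 763 nt had 549, 651 and 461 in control only, that at 1619 nt had 137, 138 and 144 in OGD/R 1.5 h only, and that at 742 nt had 405, 218 and 146 in OGD/R 3 h and 822 in OGD/R 1.5 h replicate 1. The surroundings of 9 of its 13 sites, these 4 among them, match another place in the genome, so the reads of copies may be mixed in.

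Hspa8, the constitutive Hsp70 that also strips clathrin from vesicles, had 3, 3 and 3 sites in control, 1, 0 and 0 after OGD/R 1.5 h, and 2, 1 and 2 after OGD/R 3 h. Control was above both treated groups, which overlapped at 1 site. All its sites lay in the 5′ UTR, and that at -33 nt was listed in control with 36, 51 and 36 and in OGD/R 3 h with 8, 7 and 36. All 4 sites match up to 5 other places in the genome and are uncertain. The paper counts Hspa8 among the most connected hypermethylated genes of its protein interaction network after OGD/R. That set rests on methylation levels, which were not analysed here, and a number of sites is not a level. Hsp90aa1, the stress-induced cytosolic Hsp90, had 1 site in 1 library of OGD/R 1.5 h, and it is named after its value was seen. That site matches 2 other places in the genome and is uncertain as well.

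Among 22 cytosolic J domain genes, 3 had a site, where 2607 of all 21013 protein-coding genes had one. Dnaja2, a cofactor of Hspa8 in refolding, had 5, 7 and 4 sites in control, 4, 12 and 9 after OGD/R 1.5 h, and 9, 7 and 5 after OGD/R 3 h, and the 3 groups overlapped. It had no site in exon 1 in control and OGD/R 1.5 h, and 2, 3 and 2 there in OGD/R 3 h. Dnajc5, the cysteine string protein of synaptic vesicles, had 0, 1 and 0 sites in control, 1, 0 and 3 after OGD/R 1.5 h, and 2 in each OGD/R 3 h library. The latter were the same sites in each library, at -110 and -98 nt, with scores of 69, 87 and 14 and of 11, 87 and 99. Dnajc7, named after its values were seen, had 3 sites over the groups.

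TRiC has 9 genes on the list and 2 had a site, where 2607 of all 21013 protein-coding genes had one. Cct8, a subunit of its ring, had 3, 3 and 2 sites in control, 0, 0 and 1 after OGD/R 1.5 h, and 1 in each OGD/R 3 h library. Control was above both treated groups. Its control sites lay from -20 to -6 nt in the 5′ UTR with scores from 0 to 12, and the site of OGD/R 3 h, at -6 nt, had 2, 3 and 2. Cct3, named in the same way, had 1, 0 and 1 site in control and none elsewhere. Of its 2 sites, 1 matches another place in the genome. None of the 7 small heat shock protein genes, Hspb1 among them, had a site in any library.

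Mitochondrial members had few sites and none that was listed in all libraries of a group. Hspa9, the mitochondrial Hsp70 mortalin, had 0, 0 and 2 sites in control, 0, 1 and 2 after OGD/R 1.5 h and 0, 3 and 1 after OGD/R 3 h, and 3 of its 7 sites match another place in the genome. Hspe1, the Hsp10 lid of the chaperonin, had 1 site in control replicate 3. Dnajc11, linked to the cristae complex, had 1 in OGD/R 1.5 h replicate 3, and Dnajc19, a part of the import motor, had 1 in OGD/R 3 h replicate 3. The site of Dnajc19 matches another place in the genome and is uncertain. Hspd1, which encodes Hsp60, and the other 3 members had none.

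Genes that work with these chaperones were taken from lists made by function. Of all 21013 protein-coding genes, 2607 had a site in any library, which is the share to set beside the counts below. Of 27 cytosolic cochaperones and regulators, 8 had a site, with 7, 14 and 12 sites in the control libraries, 8, 5 and 7 in OGD/R 1.5 h and 4, 3 and 6 in OGD/R 3 h. The numbers were highest in control replicates 2 and 3, and control replicate 1 overlapped with OGD/R 1.5 h. None was higher in OGD/R 3 h than in control, and 1 was lower, against 18.6% and 18.7% of all genes with a site in control or OGD/R 3 h. Among the 8 is Cdc37, whose only site was in OGD/R 1.5 h. The lower gene was Stub1, the ubiquitin ligase CHIP, with 3, 5 and 3 sites in control against 0 in each OGD/R 3 h library. Of 24 annotated genes for folding and the unfolded protein response in the endoplasmic reticulum, 11 had a site, with 5, 9 and 9 sites, 10, 8 and 9 sites, and 11, 14 and 10 sites in the same order of groups. The OGD/R 3 h libraries were the highest there but OGD/R 1.5 h replicate 1 met OGD/R 3 h replicate 3 at 10 sites. Of the 11, of which Erp29 had its only site in OGD/R 1.5 h, 1 was higher and 1 lower, beside the same shares of all genes. Erp44, which returns client proteins to the endoplasmic reticulum, was higher in OGD/R 3 h than in control, with 3 in each library against 0, 0 and 1. Txndc5, a disulfide isomerase, was lower with 1 in each library against 3, 3 and 5. Of 11 genes of mitochondrial folding and proteases, Trap1 and Clpx had a site, Trap1 with 3, 0 and 2 in control, 0, 0 and 1 after OGD/R 1.5 h and none after OGD/R 3 h.

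With the libraries of a group joined, chaperone mRNAs had 111 sites in control, 128 in OGD/R 1.5 h and 198 in OGD/R 3 h, of which 46.8%, 52.3% and 71.2% were listed in no other group. In all mRNAs these shares were 61.9%, 61.6% and 72.7%. Control and OGD/R 3 h shared 36 chaperone sites, 32.4% of those of control and 18.2% of those of OGD/R 3 h, against 20.5% and 16.9% for all mRNA sites. All 3 groups listed 17 of the 340 sites, or 5%, against 3.62% of all mRNA sites. A pair of libraries of the same group had from 36.8% to 44.4% of their sites in common in control, from 24.7% to 26.1% in OGD/R 1.5 h and from 40.4% to 47.0% in OGD/R 3 h. Pairs from different groups had from 6.32% to 15.9%. For all mRNA sites, pairs of the same group shared from 39.97% to 40.86% in control and from 29.75% to 30.61% in OGD/R 1.5 h. In OGD/R 3 h they shared from 42.83% to 45.36%, and pairs from different groups shared from 6.52% to 10.74%. Within groups, the chaperone range thus enclosed that of all mRNA sites in control and OGD/R 3 h. It lay below that of all mRNA sites in OGD/R 1.5 h.

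Of the sites listed in all 3 libraries of a group, 14 of 28 in control, 7 of 19 in OGD/R 1.5 h and 38 of 60 in OGD/R 3 h were listed in no library of another group. The shares of 50.0%, 36.8% and 63.3% stood below those of all mRNA sites, which were 56.4%, 49.6% and 72.5%. In OGD/R 3 h, 17 of the 60 sites were those of Calr. At the 4 chaperone sites listed in all libraries of control and OGD/R 3 h, the scores of the groups overlapped at each, while they did not overlap at 26.4% of the 250 such sites of all mRNAs. Between OGD/R 1.5 h and OGD/R 3 h there were 5 such sites, and 3 of them had lower scores in OGD/R 3 h. Of the 203 such sites of all mRNAs, 31 were lower and 28.1% did not overlap in either direction.

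Within 100 nt of the start codon lay 37.9 ± 5.24% of the chaperone sites of a library in control, 22.6 ± 5.93% in OGD/R 1.5 h and 41.6 ± 3.28% in OGD/R 3 h, against 27.8 ± 1.93%, 23.1 ± 1.64% and 30.9 ± 2.29% of all mRNA sites. The lowest chaperone library of control, at 32.3%, was above the highest library of all mRNAs in control, at 29.6%, and the same held in OGD/R 3 h at 38.2% against 33.4%. In OGD/R 1.5 h the ranges overlapped. In OGD/R 3 h the difference rested on Calr. Without its sites, left out after the values were seen, the share was 33.2 ± 2.46% there, from 30.4% to 34.9%, which overlapped with all mRNAs, while in control it was 38.5 ± 5.30%. The chaperone libraries of OGD/R 1.5 h, at 16.1% to 27.8%, lay below those of the other groups, with or without Calr. The share in the 3′ UTR more than 100 nt from the stop codon was lower than in all mRNAs. It was 3.18 ± 1.68%, 1.04 ± 0.898% and 1.48 ± 0.582% against 6.89 ± 0.141%, 7.21 ± 0.148% and 7.82 ± 0.150%. Sites of the 3′ UTR nearer to the stop codon are not in these shares.

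A neighbouring site within 10 nt in the same library was found for 56.8 ± 8.08% of chaperone sites in control, 35.9 ± 4.71% in OGD/R 1.5 h and 57.4 ± 4.72% in OGD/R 3 h. OGD/R 1.5 h was below both other groups without overlap. For all mRNA sites the shares were 46.7 ± 0.373%, 39.6 ± 0.640% and 51.1 ± 0.681%. Chaperone sites with a neighbour had lower scores, with library medians from 3 to 16.5, than those without, with medians from 8 to 33, and the sites without a neighbour had the higher median in each of the 9 libraries.

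The share of CG was close to that of all mRNA sites. Of the chaperone sites of a library, 26.0 ± 3.25% in control, 21.3 ± 7.28% in OGD/R 1.5 h and 21.5 ± 0.393% in OGD/R 3 h lay in CG, while 10.3% of the exon cytosines of these genes do. In all mRNAs the shares were 27.4 ± 0.518%, 22.0 ± 0.891% and 21.0 ± 0.737%. A cytosine followed by any base and GGG, the form known for targets of the methyltransferase NSUN2, made up 4.70 ± 0.246% of the chaperone sites of a control library, 2.11 ± 2.48% in OGD/R 1.5 h and 2.34 ± 0.581% in OGD/R 3 h. These shares stand for 3, 3 and 3 sites in control, 0, 1 and 3 after OGD/R 1.5 h and 3, 2 and 3 after OGD/R 3 h, so the number was about the same in control and OGD/R 3 h. The form made up 1.68% of the exon cytosines of the chaperone genes and 3.98 ± 0.282%, 3.48 ± 0.0765% and 3.32 ± 0.0747% of all mRNA sites in the 3 groups. In OGD/R 3 h every chaperone library, from 1.71% to 2.86%, was below every library of all mRNAs, while without Calr the ranges overlapped.

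Of the lone sites of high score, 3 met the limit in control, 9 in OGD/R 1.5 h and 1 in OGD/R 3 h, with 2 of them meeting it in both control and OGD/R 1.5 h. Among lone sites of all mRNAs the numbers were 104, 85 and 74. GGAC, a motif picked from these sites, was read at 2 of the 3 in control, 6 of the 9 in OGD/R 1.5 h and 0 of 1 in OGD/R 3 h. In all mRNAs, these sites included, it was read at 12.5%, 11.8% and 5.41%. OGD/R 3 h had 10 chaperone sites with such scores with or without neighbours, of which 9 belonged to the Calr run. The lone sites of OGD/R 1.5 h were thus spread over 5 genes, Calr, Canx, Hsp90ab1, Hsp90b1 and P4hb, and all but 1 of the strong sites of OGD/R 3 h were gathered in a single run.

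**Figure D5:**
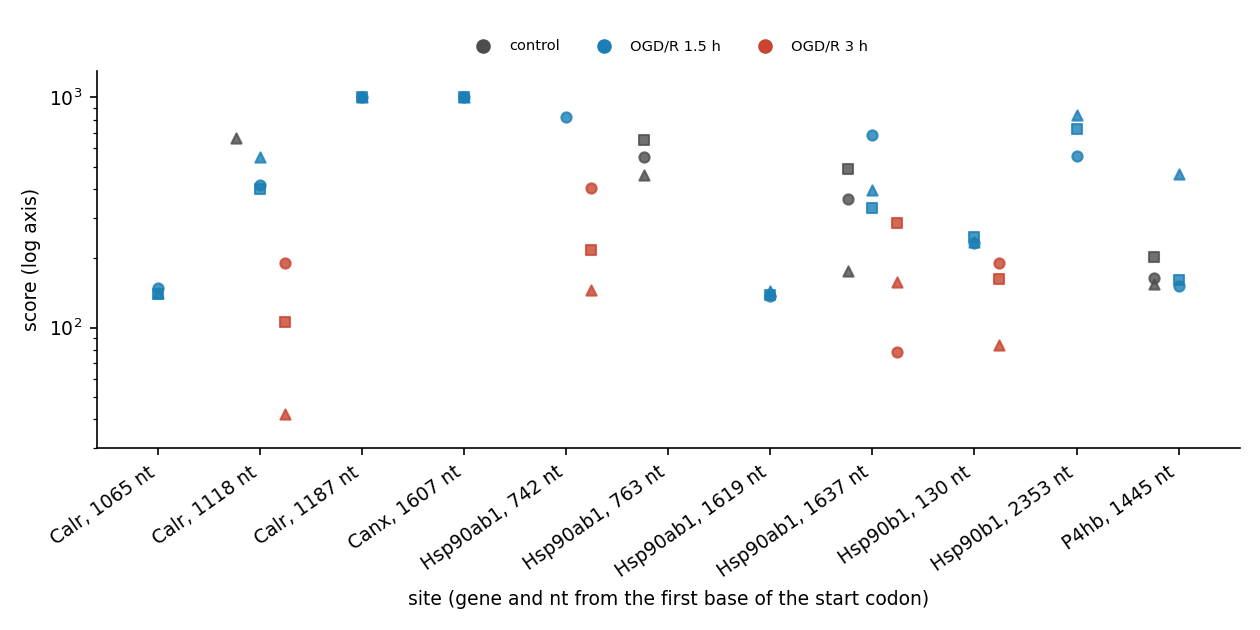
Score on a log axis at each of the 11 lone chaperone sites with a score of at least 100 in all 3 libraries of a group, with a point for each library that listed the site, color for the group and marker shape for the replicate. At Calr 1187 nt and Canx 1607 nt the 3 points of OGD/R 1.5 h coincide at 1000 and no other library listed the site, and Hsp90ab1 1637 nt has points of all 9 libraries.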

How the data were processed

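According to the labels and the methods of the study, the authors trimmed the reads with Cutadapt 1.9.3, aligned bisulfite reads to mm10 with meRanGh and called sites in each library with meRanCall. The version of the caller is not given in the sources used here. The deposited files list the sites of a library with a score of at most 1000, which was used as the authors gave it.

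Sites were assigned to exons of RefSeq protein-coding transcripts on the same strand in Python 3.11.15 with numpy 2.4.6, scipy 1.17.1 and, for the figures, matplotlib 3.10.9. The position in a gene is that in the transcript with the longest coding sequence. Start and stop codon regions reach 100 nt to either side, and in shares by region their sites are not counted as UTR or coding sequence. A run has at least 5 sites of a group with gaps of at most 10 nt. The placing, counting and symbol rules were tested on simulated data. Coverage, held for part of the sites of control and OGD/R 3 h, was used to compare replicates with sampling noise.

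Genes named are members with a site in all 3 libraries of a group, the 2 members with the most sites in each compartment and group, and Hspa8, which gave 18 genes. Other genes were named after their values were seen. The members, compartments and lists were chosen with earlier results of these data known. The alternatives were sites listed in at least 2 or in all 3 libraries of a group, a score of at least 10, sites with no neighbour within 10 nt, prefixes without the digit, the share of mRNA sites, the GENCODE annotation and each library left out in turn. Leaving out Calr or Canx was chosen after seeing the data. No test between groups was run. Expression, levels and the mock libraries were not analysed here.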

Additional observations from a re-analysis of the deposited data

How the results depend on the processing

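No paired analysis was possible because the results come from no test and each group counts as 1 sample. Leaving out each library in turn moved none of the 11 results it was run for by more than the spread between libraries. The log2 ratio of chaperone sites then ranged from 0.79 to 0.91 for OGD/R 3 h over control, from -0.14 to 0.01 for OGD/R 1.5 h over control and from 0.83 to 0.99 for OGD/R 3 h over OGD/R 1.5 h. The log2 ratio of genes with a site ranged from -0.02 to 0.07 for OGD/R 3 h and from -0.33 to -0.21 for OGD/R 1.5 h over control. For OGD/R 3 h minus control, the percentage point difference in the share of chaperone sites ranged from 2.82 to 4.61 in the endoplasmic reticulum, from -5.46 to -2.16 in the cytosol and from -0.930 to 1.49 in mitochondria. For OGD/R 1.5 h minus control it ranged from -3.39 to -0.859, from -0.375 to 2.23 and from -0.867 to 2.11.

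Of the other settings, 54 values stayed within the spread between libraries, 31 moved beyond it, and 1 took the opposite sign where the main value exceeded that spread. For chaperone sites of OGD/R 3 h over control, the log2 ratio was 1.10 with sites of all 3 libraries, 0.53 as a share of mRNA sites, 0.59 without Calr and 1.02 without Canx. For OGD/R 1.5 h over control it was -0.56 with sites of at least 2 libraries, -0.56 with those of all 3 and 0.51 with sites without a neighbour. For OGD/R 3 h over OGD/R 1.5 h the same settings gave 1.36, 1.66 and 0.31, and the share of mRNA sites gave 0.47. For genes with a site, sites of at least 2 libraries, of all 3 and without a neighbour gave 0.26, 0.70 and 0.27 for OGD/R 3 h and -0.47, -0.42 and 0.00 for OGD/R 1.5 h over control. The endoplasmic reticulum share of OGD/R 3 h minus control was 0.769 points with sites of at least 2 libraries, 1.67 with those of all 3, 8.74 with the score minimum, -1.06 without Calr and 10.2 without Canx. The cytosolic share was -9.28 points with the score minimum, 0.885 without Calr and -9.82 without Canx. For OGD/R 1.5 h minus control, sites of at least 2 libraries, of all 3 and without a neighbour gave 2.75, 3.95 and 5.36 points in the endoplasmic reticulum and -2.75, -3.95 and -7.54 in the cytosol. The share of chaperone sites in the start codon region minus that of all mRNA sites in OGD/R 3 h was 10.8 points, and 2.35 without Calr. Calr and Canx were left out as a choice made after seeing the data. Apart from these genes, whose own sites make the difference, the cause was not tested.

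The files give no depth and list only sites that passed the caller, so a site missing from a library sets no limit on its level. The number of sites in a gene rises with its coverage, and expression was not analysed here. Sites of Hspa8, Hsp90aa1 and Dnajc19, most of those of Hsp90ab1 and some of those of Calr, Cct3 and Hspa9 resemble other places in the genome. With 1 sample per group, a difference between groups is one between these samples.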
